A study of Cicer arietinum with 24 samples.

Results

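DNA replication licensing is described here for 4 chickpea (*Cicer arietinum*) genes, the cell division cycle gene *CDC6* (Ca_15618) and Ca_09549, Ca_15408 and Ca_12014, which the study calls minichromosomes and which are read here as minichromosome maintenance (MCM) genes. They were taken by gene identifier, as the genes of DNA replication that the study names among its seed size/weight candidates, and are 4 of the 28269 genes with a value. The RNA data come from earlier work of the study's authors, which the study used. That work sequenced RNA of the small-seeded cultivar Himchana 1, grown in the field. The samples were whole seeds at 7 stages and leaves of mature plants collected during mid-maturation of the seeds, with 3 biological replicates each (24 samples). S1, S2 and S3 are early-, mid- and late-embryogenesis, S5 is mid-maturation and S7 is late-maturation, while S4 and S6 are the stages between them. No treatment was applied and no other cultivar is part of these samples. Each stage is held as 1 FPKM value per locus for its 3 replicates together (fragments per kilobase of exon, scaled to the number of mapped fragments). The values therefore have no replicate error, no p-value was calculated, and all differences describe these 8 libraries only. For the same reason, neighbours in the order of a gene's levels cannot be said to differ.

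Licensing prepares a chromosome to be copied once, and only once, in each cell cycle. In yeast and animals, the origin recognition complex marks the sites where copying may begin, CDC6 binds to it and helps to load rings of MCM proteins onto the DNA, and these rings later work as the helicase that opens the double strand. Plants have the same components, and in Arabidopsis *CDC6* is also active in cells that copy their DNA without dividing (endoreduplication), as storage cells of legume seeds do. Cells that have left the cell cycle usually make little CDC6 or MCM transcript. Which MCM subunit each of the 3 genes encodes is not given in the sources used here, and no sequence or coordinates are given because the identifiers matched 0 of the 29938 genes of the RefSeq table available (assembly Cicar.CDCFrontier_v2.0).

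All 4 genes had their highest value at S1. All 4 were at least 2-fold lower at S7 than at S1, where 20.8% of all genes were. Of the 17658 genes reaching 1 FPKM at S1 or S7, 33.3% were. Among genes reaching 1 FPKM in some library (19505), 12.4% had their highest value at S1. A whole seed joins seed coat, endosperm and embryo, and the endosperm is resorbed before mid-maturation in chickpea. In such samples fewer dividing cells and less transcript per cell cannot be told apart. The choice of the genes by the study also used these samples. The study took genes with more CG context DNA methylation in the gene body in the large-seeded cultivar JGK 3 than in Himchana 1. They also had higher expression in JGK 3, at S3 (Ca_15618, Ca_09549, Ca_15408) or at S5 (Ca_12014). Low values of Himchana 1 at those stages were thus favoured by the choice.

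*CDC6* (Ca_15618), the loading factor, had 8.03 FPKM at S1, 2.10 at S2 and 1.22 at S3, then 1.93 at S4 and 0.587 at S5, and lastly 0.0572 at S6 and 0.0588 at S7, against 0.116 FPKM in leaf. The youngest seed stood well above the others, and its value made up 57.5% of its sum over the 7 seed stages. At S6 it lay at percentile 35.5 of all genes, against 61.3 at S1. Its S6 and S7 values and that of leaf are too low to be ordered, as the depth is unknown. Its highest seed value was 140-fold its lowest, a ratio that rests on the low value at S6.

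The MCM gene Ca_09549 had the highest values of the 4 genes in every seed library, with 46.5 FPKM at S1, 17.1 at S2 and 6.48 at S3, then 7.45 at S4 and 3.99 at S5, and lastly 4.07 at S6 and 6.14 at S7, against 0.390 FPKM in leaf. Unlike the other genes, it had no seed value below 3.99 FPKM, and at late-maturation it lay at percentile 62.7 of all genes. At S1 it lay at percentile 88.9. Each seed stage was above leaf, its lowest library, and the values at S5 and S6 were nearly equal. The highest seed value was 11.6-fold the lowest.

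Ca_15408, the MCM gene closest to *CDC6* in profile, had 33.3 FPKM at S1, 9.12 at S2 and 5.02 at S3, then 6.82 at S4 and 3.02 at S5, and lastly 0.981 at S6 and 1.61 at S7, against 0.585 FPKM in leaf. Its order of libraries from S1 to S5 was that of *CDC6*, with S1 first, then S2, S4, S3 and S5. The highest seed value was 33.9-fold the lowest, between that of *CDC6* and that of Ca_09549. S1 held 55.6% of its seed sum.

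Ca_12014 was the weakest MCM gene in seeds and the flattest in embryogenesis, with 3.52 FPKM at S1, 1.62 at S2 and 1.64 at S3, then 2.27 at S4 and 1.20 at S5, and lastly 0.490 at S6 and 0.262 at S7, against 1.15 FPKM in leaf. S1 held 32.0% of its seed sum and S4 held 20.7%, the second highest value. Its leaf value lay above those of S6 and S7 and was 4.41-fold that of S7, so that Ca_12014 is the MCM gene for which leaf was not the lowest library. Its values at S2 and S3 were nearly equal.

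**Figure D1:**
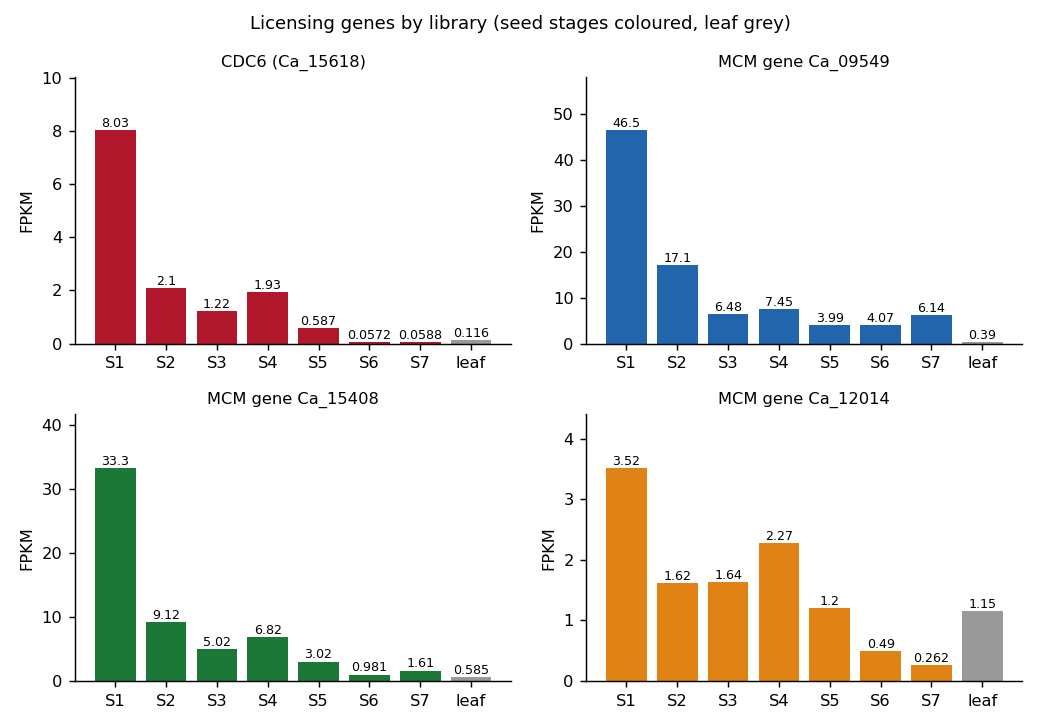
FPKM (vertical axes, each from 0) of *CDC6* and the 3 MCM genes in the seed libraries S1 to S7 (coloured bars) and in leaf (grey bar), each bar being the merged value of 3 replicates, with no error available. Every gene is highest at S1, Ca_09549 keeps 6.14 FPKM at S7, and Ca_12014 has 1.15 FPKM in leaf.

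As deposited, the lowest log2(FPKM + 1) change between successive stages was that of S2 over S1 for each of the 4 genes. This did not hold with the same sum, where S5 over S4 was lowest for all 4 genes, nor with pseudocounts of 0.1 and 0.01, where S6 over S5 was lowest for *CDC6* (-2.13 and -3.15) and Ca_12014 (-1.14 and -1.27). On the log2(FPKM + 1) scale, which understates the change of low values, 3 of the 4 genes were at least 2-fold lower at S2 than at S1 and none higher, where 2.41% of all genes were at least 2-fold lower and 4.29% higher. With the smaller pseudocounts of 0.1 and 0.01 all 4 were lower, where 3.86% and 5.54% of all genes were. The changes were -1.54 for *CDC6*, -1.40 for Ca_09549 and -1.76 for Ca_15408. The change of Ca_12014 was -0.79 (1.62 FPKM at S2, against 3.52 at S1), short of 2-fold on this scale, although the plain ratio of S1 over S2 is 2.18. Of the 17490 genes reaching 1 FPKM at S1 or S2, 3.89% were at least 2-fold lower and 6.94% higher. Of the same 17490 genes, 0.555% had a lower change than Ca_15408, and 6.82% had a lower one than Ca_12014. The median change of the 4 genes was -1.47, against 0.00 over all genes.

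From S2 to S3 the genes differed from each other. Ca_09549 was at least 2-fold lower at S3, with a change of -1.27 (6.48 FPKM at S3, against 17.1 at S2), and it was 1 of 4 genes called where 6.05% of all genes were lower and 5.67% higher. With the same sum for each library, Ca_15408 was called as well, where 13.9% of all genes were lower. The median of the 12212 genes reaching 1 FPKM in all libraries was then -0.40. Ca_15408 changed by -0.75 and *CDC6* by -0.48. The S3 values of *CDC6*, Ca_09549 and Ca_15408 entered their choice by the study, so a low S3 was favoured for them, but not for Ca_12014. The change of Ca_12014 was 0.01, which turned to -0.32 when the libraries were rescaled to the same sum, to -0.03 by median ratio and to -0.06 by upper quartile.

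The 4 genes were all higher at S4 than at S3, by 0.40 for *CDC6*, 0.38 for Ca_15408, 0.31 for Ca_12014 and 0.18 for Ca_09549 on the log2(FPKM + 1) scale. None of them reached 2-fold in this step, in which 2.39% of all genes were higher and 2.29% lower. As 3 of the genes were chosen with the S3 values in view, a low S3 was favoured for them, but not for Ca_12014. The direction was the same under each scaling tried.

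At S5, mid-maturation, all 4 genes were below their S4 values, with changes of -0.88 for *CDC6*, -0.76 for Ca_09549, -0.96 for Ca_15408 and -0.57 for Ca_12014. As deposited, 0 of the 4 reached 2-fold, where 7.99% of all genes were at least 2-fold lower and 7.57% higher. This count depended on the scale. At a pseudocount of 0.1, 2 of the 4 were called where 14.3% of all genes were lower. After rescaling to the same sum, 4 were called where 39.5% of all genes were lower, a scaling that moves the median of the 12212 genes reaching 1 FPKM in all libraries to -1.20. The changes under that scaling were -2.03 for Ca_15408, -1.88 for Ca_09549, -1.58 for *CDC6* and -1.40 for Ca_12014, each below that median. The S5 value of Ca_12014 entered its choice by the study.

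From S5 to S6 the changes of the MCM genes ranged from -1.02 to 0.02 as deposited. Ca_15408 was at least 2-fold lower at S6, with a change of -1.02 (0.981 FPKM at S6, against 3.02 at S5). It was 1 of 4 genes called where 17.1% of all genes were lower and 18.5% higher. Of the 17162 genes reaching 1 FPKM at S5 or S6, 28.2% were lower, so the count is close to that share. The call was lost with the same sum (-0.96). Ca_09549 changed by 0.02 in the same step, a value that became -0.35 with the median ratio, -0.37 with the upper quartile and -0.19 with the same sum, the 12212 genes having a median of 0.44 in this step as deposited. *CDC6* changed by -0.59 and Ca_12014 by -0.56 on this scale. With a pseudocount of 0.1, in which low values are damped less, 3 of the 4 genes were called lower, where 23.7% of all genes were. From S6 to S7 none changed 2-fold, where 3.22% of all genes were lower and 1.39% higher. Ca_09549 was higher at S7 by 0.50 and Ca_15408 by 0.40, while Ca_12014 was lower with -0.24 and *CDC6* stayed at 0.00, both of its values being near 0.06 FPKM.

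Over the whole course, all 4 genes were at least 2-fold lower at S7 than at S1. Of all genes, 20.8% were lower and 20.8% higher. Of the 17658 genes reaching 1 FPKM at S1 or S7, 33.3% were lower and 33.3% higher. The calls of the 4 genes held in each alternative that changes their values. The changes were -3.09 for *CDC6*, -2.73 for Ca_09549, -3.71 for Ca_15408 and -1.84 for Ca_12014, with a median of -2.91 against 0.00 over all genes. The 12212 genes reaching 1 FPKM in all libraries had a median of 0.49 in this comparison as deposited, and the 4 genes lay below it.

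Young seeds at S1 were also set against leaf, a vegetative tissue. All 4 genes were at least 2-fold higher at S1, where 17% of all genes were higher and 17.3% lower. Of the 18111 genes reaching 1 FPKM at S1 or in leaf, 26.6% were higher and 27% lower. The log2(FPKM + 1) change was 5.10 for Ca_09549 (46.5 FPKM at S1, against 0.390 in leaf), 4.43 for Ca_15408, 3.02 for *CDC6* and 1.07 for Ca_12014. Ca_12014 thus lay close to the 2-fold limit on this scale, although its plain ratio of S1 over leaf is 3.05. Of the 18111 genes reaching 1 FPKM at S1 or in leaf, 98.8% were below the change of Ca_09549.

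**Figure D2:**
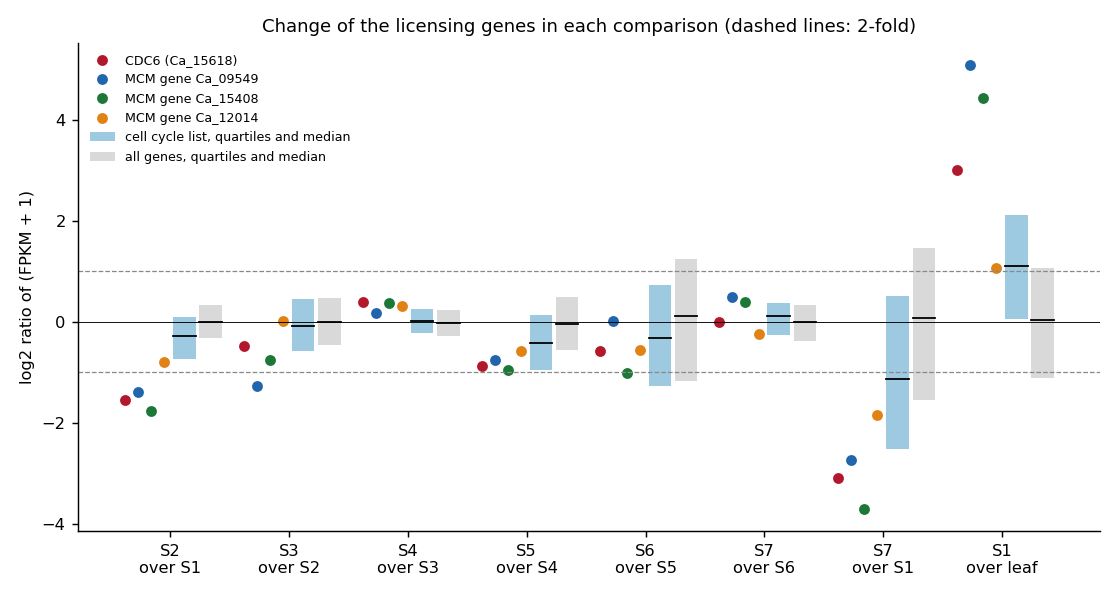
Log2 ratio of FPKM + 1 (vertical axis) in the 8 comparisons (horizontal axis), with points for the 4 licensing genes and boxes from the lower to the upper quartile, with the median as a line, for the cell cycle list (blue) and for all genes (grey), both with at least 1 FPKM in one of the 2 libraries. The points lie below -1 for 3 genes at S2 over S1 and for 4 at S7 over S1, and all lie above 1 at S1 over leaf.

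FPKM is scaled for length, so levels can be set side by side between genes. *CDC6* amounted to 9.64% of the summed FPKM of the 3 MCM genes at S1, 7.54% at S2 and 9.27% at S3, then 11.7% at S4 and 7.14% at S5. It dropped to 1.03% at S6 and 0.734% at S7, and was 5.46% in leaf. Through the first 5 stages *CDC6* and the MCM genes therefore kept a ratio of 7.14% to 11.7%. Meanwhile the MCM sum fell to 8.22 FPKM at S5, against 83.3 at S1. The ratio left this range at S6. Its values at S6, S7 and in leaf rest on *CDC6* at 0.0572, 0.0588 and 0.116 FPKM, which are of unknown precision. That at S5 rests on 0.587 FPKM. At S6 and S7, Ca_09549 alone made up 73.4% and 76.6% of the MCM sum. The MCM sum itself was 83.3 FPKM at S1, 27.8 at S2 and 13.1 at S3, then 16.5 at S4 and 8.22 at S5, and lastly 5.54 at S6 and 8.02 at S7, against 2.13 FPKM in leaf.

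The levels of the MCM genes were unequal. Ca_09549 had 1.09 to 1.87 times the FPKM of Ca_15408 from S1 to S5, but 4.15 times at S6 and 3.81 times at S7, and 0.667 times in leaf. Ca_15408 had 9.45 times the FPKM of Ca_12014 at S1, 5.64 at S2 and 3.07 at S3, then 3.00 at S4 and 2.52 at S5, and lastly 2.00 at S6 and 6.16 at S7, against 0.506 times in leaf. The order of the MCM genes was thus the same in all 7 seed libraries and turned round in leaf, where Ca_12014 made up 54.2% of their sum. The ratios within a library do not change with the scaling of the library, but those in leaf, at S6 and at S7, and those over Ca_12014 also at S2, S3 and S5, involve genes below 2 FPKM.

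**Figure D3:**
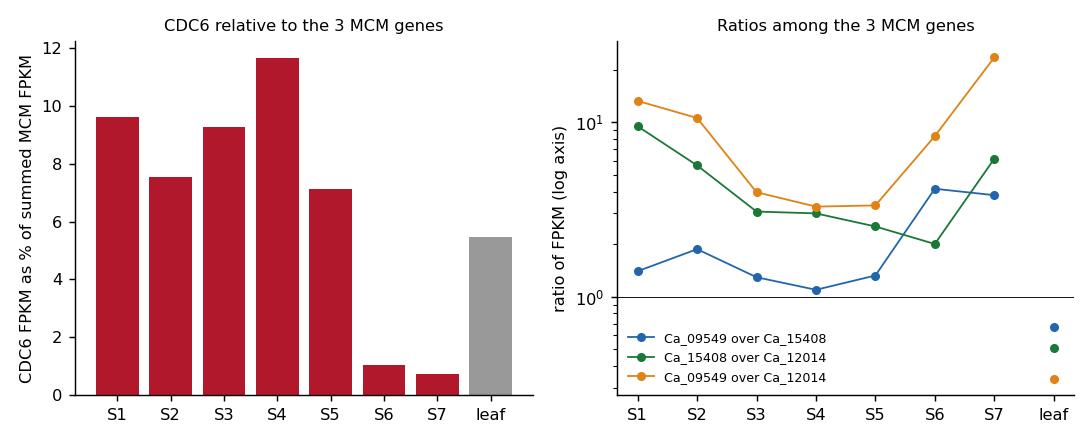
Left, FPKM of *CDC6* as a percentage of the summed FPKM of the 3 MCM genes in each library, seed stages in red and leaf in grey. Right, ratios of FPKM between pairs of MCM genes on a log axis, where the ratio of Ca_09549 over Ca_15408 stands at 4.15 at S6 and all ratios are below 1 in leaf.

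The likeness of the profiles was measured on the log2(FPKM + 1) scale over the 8 libraries, which share the scaling of each library and are described with no test. *CDC6* and Ca_15408 were closest, with a Pearson r of 0.98 and a Spearman rho of 0.93, and r was 0.96 without S1 and S6, the 2 libraries farthest from the median of *CDC6*. Over S1 to S5 both genes had the same order of stages. Ca_09549 and Ca_12014 were least alike, with an r of 0.59 and a rho of 0.71, and r was 0.45 without S1 and leaf. When each gene was set against the mean standardised profile of the other 3, *CDC6* had an r of 0.99, which 6 of 19502 genes exceeded, and Ca_15408 had 0.99, which 4 exceeded. Ca_09549 reached 0.81 and Ca_12014 reached 0.80, exceeded by 1561 and 1214 genes. Beside this close pair, Ca_09549 stood apart in late seeds and leaf, and Ca_12014 in leaf and at S7, and less so at S4.

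The wider cell cycle was described with the 314 other genes that the study assigns to the cell cycle by gene ontology in its analysis of JGK 3 stages. That set holds only genes with differential methylation or expression between stages of JGK 3, so the list is not independent evidence of a direction. At S2 against S1, 40 of the 314 genes (12.7%) were at least 2-fold lower and 8 (2.55%) higher, where 2.41% and 4.29% of all genes were. Their median was -0.16, while that of the licensing genes was -1.47. The higher genes numbered 16 with the same sum and 22 with a pseudocount of 0.1, where 6.89% and 8.65% of all genes were. At S5 against S4, 58 were lower and 12 higher, with a median of -0.29, where 7.99% of all genes were lower and 7.57% higher. With a pseudocount of 0.1 the list had 98 lower and 21 higher, and with the same sum 191 lower and 4 higher, where 14.3% and 39.5% of all genes were lower. At S7 against S1, 138 were lower and 52 higher (median -0.66), where 20.8% of all genes were lower and 20.8% higher. Of the genes reaching 1 FPKM at S1 or S7, 52.9% on the list and 33.3% of all were lower. Higher were 19.9% on the list and 33.3% of all. The higher ones of the list numbered 15 with the same sum and 32 with the upper quartile, where 7.54% and 12.5% of all genes were. In this comparison 32 genes of the list had a larger fall than Ca_15408, 47 than *CDC6*, 60 than Ca_09549 and 96 than Ca_12014. At S1 against leaf, 141 were higher and 32 lower (median 0.81), where 17% of all genes were higher and 17.3% lower. The lower ones numbered 19 with the same sum and 21 with the upper quartile, where 13.7% and 14.8% of all genes were. Of the 281 list genes reaching 1 FPKM in some library, 36.7% were highest at S1, against 12.4% of all such genes. The genes of the list followed the licensing genes to unequal degrees, and their quartiles of r to the mean licensing profile were -0.19 and 0.89, with a median of 0.50.

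The 100 genes most like the mean profile of the licensing genes held 18 genes of the list, which makes up 1.44% of the 19501 genes ranked, and 11 with Spearman ranks. An r of at least 0.95 was reached by 162 genes, among them 27 of the list. On the list, Ca_15301 (r = 0.99), Ca_06762 (r = 0.99) and Ca_05156 (r = 0.99) were closest. Ca_05156 had 31.8 FPKM at S1, 8.89 at S2 and 5.89 at S3, then 6.86 at S4 and 2.95 at S5, and lastly 0.867 at S6 and 0.773 at S7, against 0.140 FPKM in leaf, which is close to the values of Ca_15408 at most stages. Among all genes, Ca_13822, Ca_23176 and Ca_14881 were closest (r = 0.99 each). These had lower values, with 3.38, 8.93 and 8.76 FPKM at S1. The sources used here give no gene names for these 6 genes.

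The methyltransferases that restore DNA methylation on new strands after replication, *CaMET1* (Ca_18432) for the CG context and *CaCMT3* (Ca_23587) for the CHG context, were set beside the licensing genes. *CaCMT3* had 31.7 FPKM at S1, 9.29 at S2 and 3.92 at S3, then 4.72 at S4 and 0.715 at S5, was listed at 0 at S6, and had 0.0499 at S7 and 0.114 FPKM in leaf. *CaMET1* had 7.52 FPKM at S1, 4.61 at S2 and 2.24 at S3, then 2.39 at S4 and 1.18 at S5, and lastly 0.324 at S6 and 0.555 at S7, against 0.564 FPKM in leaf. Both had the order S1, S2, S4, S3, S5 of *CDC6* and Ca_15408. Their r to the mean licensing profile was 0.99 for *CaCMT3*, at place 19 of the 19501 genes, and 0.97 for *CaMET1*, at place 48, and both are on the cell cycle list. At S2 against S1 *CaCMT3* was at least 2-fold lower (-1.67), while the change of *CaMET1* was -0.60.

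**Figure D4:**
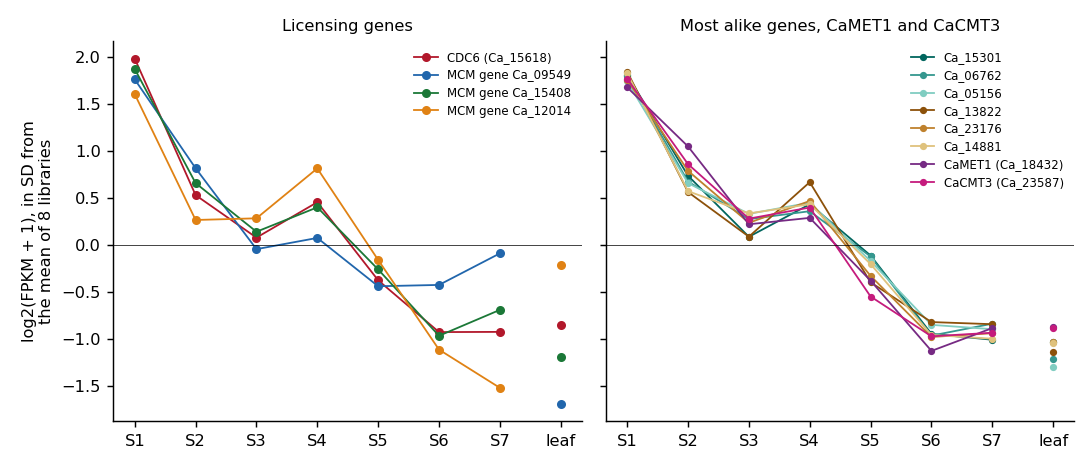
Profiles on the log2(FPKM + 1) scale, in standard deviations from the mean of the 8 libraries, for the licensing genes (left) and other genes (right). The other genes are the 3 most alike on the cell cycle list, the 3 most alike of all genes, *CaMET1* and *CaCMT3*. Seed stages are joined by lines and leaf stands apart. *CDC6* and Ca_15408 run together, Ca_09549 stays up at S6 and S7, and Ca_12014 is highest of the 4 at S4 and in leaf.

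The libraries differed in ways that bear on these values. The 75th percentile of the loci differed little, from 10.7 FPKM (S7) to 11.7 FPKM (S3). The FPKM of all loci, by contrast, summed to between 723136 (S2) and 2515731 (S7), with the 3 largest sums at S5, S6 and S7. The genes listed at 0 numbered 6156 (S2) to 8899 (S7). The stages with low licensing values from S5 on are thus those with large sums, whose part in the values was not tested, and the changes at S7 over S1 after rescaling to the same sum were -3.70 for *CDC6*, -4.17 for Ca_09549, -4.86 for Ca_15408 and -2.51 for Ca_12014, against a median of -1.01 for the 12212 genes above.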

How the data were processed

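The members and lists were chosen with earlier results of these data known. Per the series description, the authors cleaned the reads (NGS QC Toolkit), placed them on the annotated genome of chickpea (TopHat) and derived FPKM from these alignments (Cufflinks). The gene identifiers are those of the kabuli chickpea genome, to which the study mapped its methylation reads, and the tool versions and build behind these FPKM values are not stated separately. The deposited FPKM values hold 1 value per locus and stage for 3 replicates together, and neither the merging nor the scaling between libraries is stated, so no replicate test was made. FPKM values hold no counts. The ratios of loci below 0.08 FPKM had no common step (at most 2.55% of loci fell on the commonest ratio, in steps of 1%), so the depth is unknown and low values are of unknown precision. Of 35234 loci, 26305 with 1 identifier were summed per gene, 1661 that join identifiers were used where a gene had no other locus, and 7268 without identifier were left out. Each licensing gene has 1 locus of its own and no shared one. Changes are log2 ratios of FPKM + 1, called at 2-fold, over all 28269 genes. Genes named are the 4 genes, *CaMET1* and *CaCMT3*, and the 3 genes on the cell cycle list and the 3 of all genes with the highest r to the mean standardised profile, among genes with at least 1 FPKM in some library. No cell type markers were available to check the tissue labels. Alternatives were pseudocounts of 0.1 and 0.01, the same sum, median ratio or upper quartile scaling, a minimum of 1 FPKM, genes with 1 locus only, and, for profiles, Spearman ranks or seed libraries only. The counting was tested on simulated data. Python 3.11.15, numpy 2.4.6 and pandas 2.3.3 were used.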

Additional observations from a re-analysis of the deposited data

How the results depend on the processing

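No paired analysis was possible because replicates are not separate in the values, and leaving out each replicate in turn was not run for the same reason. In all 7 alternatives, all 4 licensing genes stayed at least 2-fold lower at S7 than at S1. They also stayed at least 2-fold higher at S1 than in leaf. The minimum of 1 FPKM and the choice of genes with 1 locus leave the values of these genes unchanged, so their outcome was fixed. At S2 over S1, 3 were lower in 5 of the 7 alternatives, these unchanged ones included, and 4 with either smaller pseudocount. At S5 over S4, where 0 were called, 2 were lower with a pseudocount of 0.1 and 2 with 0.01. The count was 4 with the same sum, 1 with the median ratio and 3 with the upper quartile. In this order of settings, 14.3%, 18.6%, 39.5%, 8.79% and 12.4% of all genes were lower. At S6 over S5, where 1 was lower, 3 were with pseudocounts of 0.1 and 0.01 (23.7% and 25.7% of all genes) and 0 with the same sum (17.4%). At S3 over S2, 2 were lower with the same sum, where 13.9% of all genes were. No called change of a licensing gene reversed.

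For the cell cycle list, higher genes at S2 over S1 numbered 22 and 29 with pseudocounts of 0.1 and 0.01 and 16 with the same sum. Of all genes, 8.65%, 12.6% and 6.89% were. At S5 over S4, lower genes numbered 98, 111 and 191 and higher genes 21, 26 and 4 under these 3 settings. Of all genes, 14.3%, 18.6% and 39.5% were lower and 10.3%, 11.5% and 2.52% higher. Higher genes at S7 over S1 numbered 15 with the same sum and 32 with the upper quartile, where 7.54% and 12.5% of all genes were. Lower genes at S1 over leaf numbered 19 and 21, where 13.7% and 14.8% of all genes were. Spearman ranks left 11 list genes among the 100 most alike. Over all genes, the share of higher among changed genes at S7 over S1 was 50.0% as deposited, 17.2% with the same sum, 38.3% with the median ratio and 30.6% with the upper quartile, and at S5 over S4 it was 48.7%, 6.00%, 45.3% and 31.0%. With the same sum, the median of genes reaching 1 FPKM in all libraries was -1.01 at S7 over S1. With unknown depth, values far below 1 FPKM, such as those of *CDC6* at S6, S7 and in leaf, cannot be ordered.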
